A study of Mus musculus with 22 samples.

Results

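Transcripts of 10 genes that cytotoxic lymphocytes use to recognise and kill target cells were followed across 22 RNA-seq libraries of a murine model of chronic lymphocytic leukemia (CLL). The genes, chosen by name, were the CD8 co-receptor chains Cd8a and Cd8b1, the granule genes Gzma, Gzmb, Prf1 and Nkg7, the receptor gene Klrd1, the transcription factor genes Eomes and Tbx21, and the cytokine gene Ifng. GENCODE assigns to them 17 of the 62492 transcripts in the table, and counts were summed per gene, so that they made up 10 of 17023 genes.

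The leukemia cells came from TCL1-355 TKO, a line derived from the Eμ-TCL1 transgenic mouse and carrying, in every group, introduced biallelic losses of tumor suppressor genes, Cdkn2a and Cdkn2b among them. NFKBIE-ko cells had been edited by CRISPR/Cas9 in exon 2 of Nfkbie, which encodes the NF-κB inhibitor IκBε, and NFKBIE-wt cells had received Cas9 without a guide. Both were expanded for 21 days in separate C57BL/6 mice, 2 in all, and injected intraperitoneally into C57BL/6 recipients, 5 per genotype, whose spleen and peritoneal cavity (PC) were sampled 10 days later (4 samples per genotype and site). Cells taken from the spleens of 3 mice and cultured for 2 weeks gave 3 in vitro samples per genotype.

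Leukemia cells were not purified from the spleen and the PC, so that these libraries also hold transcripts of host lymphocytes and other cells. In such bulk samples, fewer cells of a type and less RNA per cell cannot be told apart. Genotype and the mouse in which the cells had been expanded cannot be told apart either, and the labels do not say which spleen and PC samples came from 1 mouse. The labels name blood as the tissue of all samples, and it is their other text that gives the site. P-values measure the spread between the samples, part of which may be technical.

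Cytotoxic T cells and natural killer (NK) cells kill by releasing granules in which perforin opens the membrane of the target and granzymes enter to cleave proteins that trigger its death. The T-box factors T-bet and eomesodermin turn on this program together with interferon gamma, a cytokine that raises antigen presentation in neighbouring cells. In CLL such cells belong to the environment of the leukemia and not to the malignant B cells, although T-bet is also known in activated B cells.

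Library totals ranged from 24036763 to 26581304 estimated counts. Levels are given as CPM, counts set to a common library size with TMM factors. The edited gene itself was still transcribed. Nfkbie reached 53.9 to 119.7 CPM in NFKBIE-ko and 70.5 to 122.9 CPM in NFKBIE-wt spleens, 46.9 to 64.5 and 66.9 to 90.7 CPM in the PC, and 47.8 to 59.5 and 54.0 to 139.7 CPM in vitro, and an indel in exon 2 need not lower it. The 122.9 and the 54.0 CPM came from NFKBIE-wt spleen replicate 4 and NFKBIE-wt in vitro replicate 3, and without them the NFKBIE-wt values were 70.5 to 76.3 CPM in the spleen and 116.0 and 139.7 CPM in vitro, the latter above all NFKBIE-ko cultures.

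A pair of NFKBIE-wt libraries went against their labels. NFKBIE-wt spleen replicate 4 correlated with the other NFKBIE-wt spleens at 0.943 to 0.961 (log2 CPM across genes) and with the NFKBIE-wt cultures of replicates 1 and 2 at 0.982 to 0.989. NFKBIE-wt in vitro replicate 3 correlated with those cultures at 0.937 to 0.952 and with NFKBIE-wt spleens 1 to 3 at 0.979 to 0.987. The summed CPM of 6 erythroid markers was 6.69 in that spleen library against 268 to 2000 in the other NFKBIE-wt spleens, and 1390 in that culture against 11.7 to 20.6 in the other NFKBIE-wt cultures. Both libraries were kept in the groups that their labels give, and values without them are given where they changed a call, for the 10 genes in every comparison and for other genes in the spleen.

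Most of the 10 genes were higher in NFKBIE-ko than in NFKBIE-wt spleens. All 10 had a fold change above 0 (median log2 fold change 2.63, against -0.004 for all genes tested), in 8 of 10 every NFKBIE-ko spleen lay above every NFKBIE-wt spleen (8.06% of all genes tested), and 4 of 10 were called higher, namely Gzmb, Cd8a, Nkg7 and Prf1 (1.33% of all genes). Calls rest on the quasi-likelihood test of edgeR, and a called gene had to differ by over 1 on the log2 scale at a p under 0.05 after Benjamini-Hochberg adjustment over all genes tested in that comparison. Without NFKBIE-wt spleen replicate 4, 8 of 10 were called higher (2.86% of all genes), all but Gzma and Klrd1, and 9 of 10 did not overlap (12.8%), with a median of 2.35 against -0.007 for all genes. The count rests on single libraries: it was 1, Prf1 alone, without NFKBIE-wt spleen replicate 1, 2 or 3 or without NFKBIE-ko spleen replicate 1, 3 or 4, and 3 without NFKBIE-ko spleen replicate 2. The share of all genes called in those fits is not given, so the drop cannot be read as particular to the 10 genes.

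In the PC, 6 of the 9 genes tested were called higher in NFKBIE-ko samples (9.85% of all genes): Cd8a, Gzma, Gzmb, Prf1, Nkg7 and Eomes. The 9 fold changes were above 0 (median 1.26, against -0.008 for all genes), and in 5 of 10 genes the groups did not overlap (22% of all genes). Ifng was not tested there because its counts were below edgeR's filter. Eomes was no longer called without any 1 of NFKBIE-wt PC replicates 1, 2 and 3 or of the 4 NFKBIE-ko PC samples, with log2 fold changes of 0.988 to 1.26 in those fits.

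**Figure D1:**
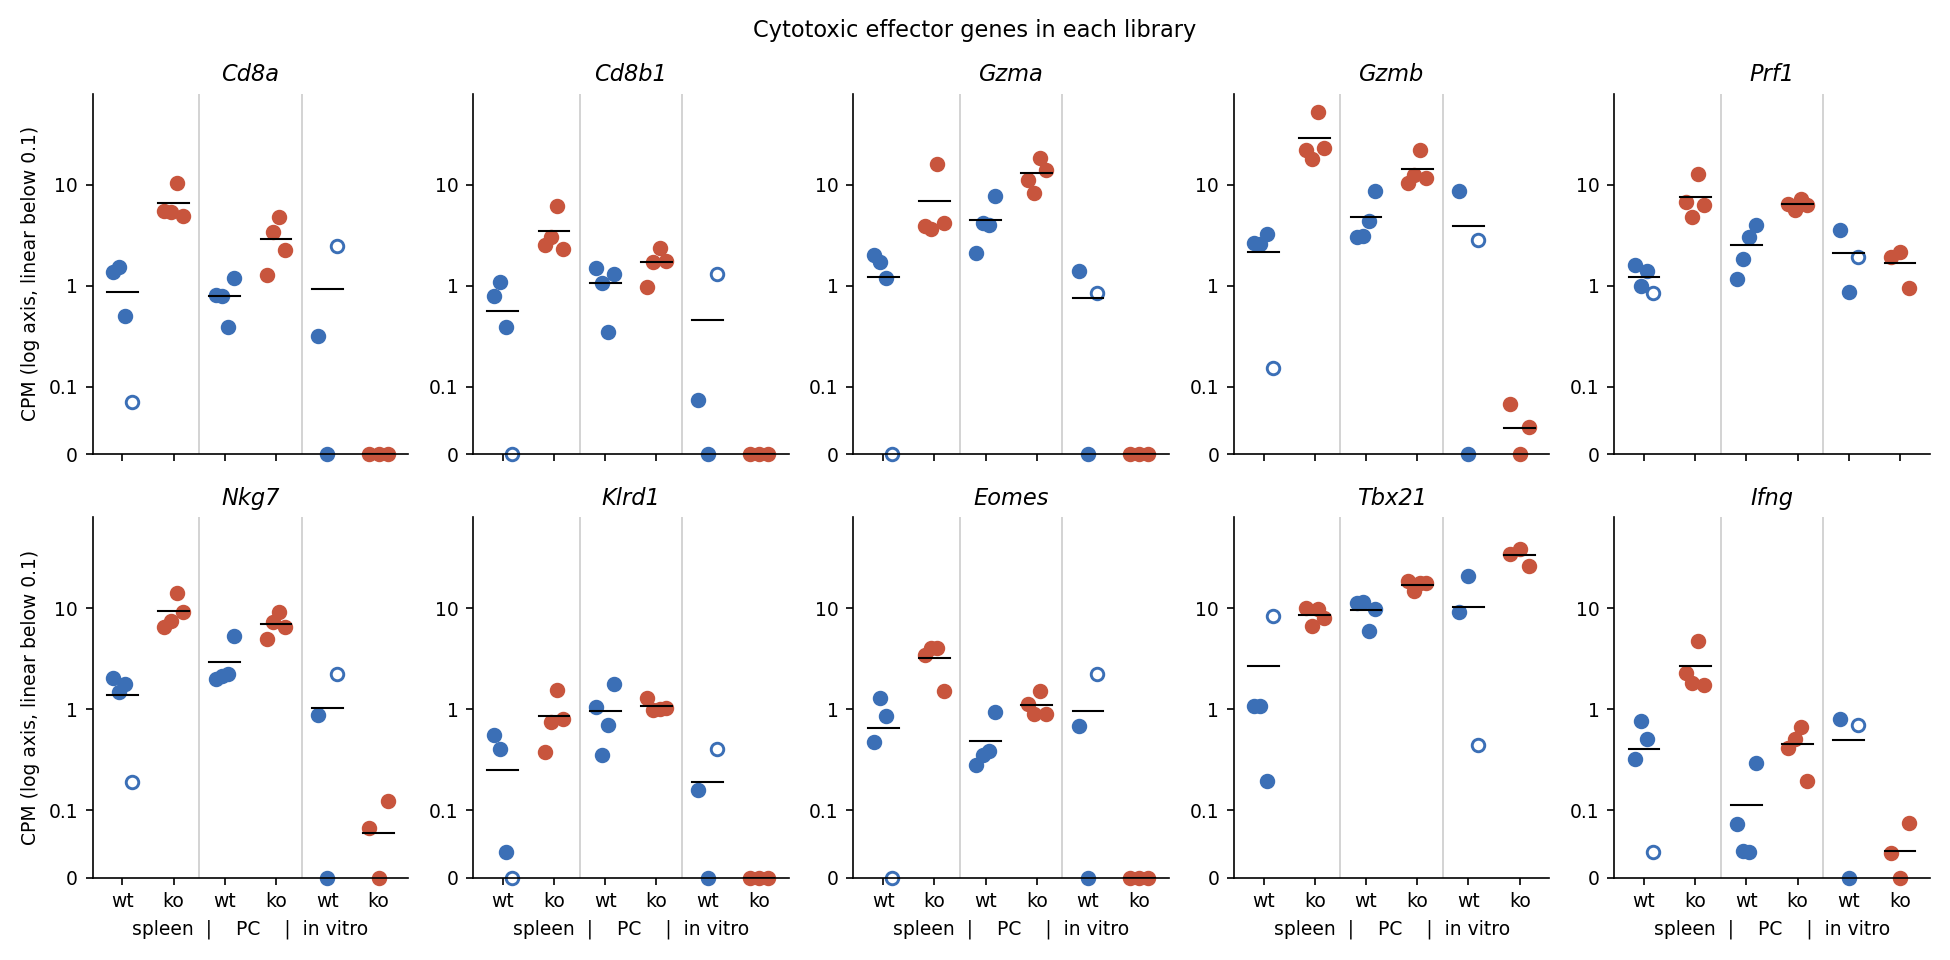
CPM of each gene in every library (log axis, linear below 0.1), with NFKBIE-wt in blue, NFKBIE-ko in red, a black line at each group mean, and open circles for NFKBIE-wt spleen replicate 4 and NFKBIE-wt in vitro replicate 3. Gzmb lies between 18 and 52.7 CPM in NFKBIE-ko spleens and between 0.154 and 3.26 CPM in NFKBIE-wt spleens, whereas Tbx21 is highest in the NFKBIE-ko cultures, in which Cd8a is at 0.

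Cd8a and Cd8b1 encode the chains of the CD8 co-receptor, which binds MHC class I beside the T-cell receptor. They lie next to each other on chromosome 6 (GRCm39, plus strand, chr6:71350411-71356157 and chr6:71299772-71315087). Cd8a stood at 1.36, 1.53, 0.504 and 0.0769 CPM in NFKBIE-wt spleens 1 to 4 and at 5.48, 5.40, 10.4 and 4.96 CPM in NFKBIE-ko spleens 1 to 4. All NFKBIE-ko spleens were above all NFKBIE-wt spleens, and the lowest value, 2 counts, was that of NFKBIE-wt replicate 4. The log2 fold change was 2.91 (SE 0.70, adjusted p = 0.0476, edgeR) and without that library 2.53 (SE 0.45, adjusted p = 0.00957). Of the Cd8a counts 49.5% fell on the transcript Cd8a-201, 40.9% on the other coding transcript Cd8a-202 and 9.68% on a transcript with a retained intron.

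Cd8b1 followed in the spleen with 0.799, 1.09, 0.388 and 0 CPM in NFKBIE-wt and 2.55, 3.01, 6.19 and 2.31 CPM in NFKBIE-ko samples. Although the groups did not overlap, its difference of 2.62 missed the threshold (SE 0.85, adjusted p = 0.113, edgeR) and passed it without NFKBIE-wt replicate 4 (2.20, SE 0.49, adjusted p = 0.0239). In the PC Cd8a was called and Cd8b1 was not. Cd8a rose from 0.804, 0.790, 0.388 and 1.19 CPM in NFKBIE-wt to 1.28, 3.39, 4.77 and 2.28 CPM in NFKBIE-ko samples (1.87, SE 0.44, adjusted p = 0.0063). Cd8b1, at 0.349 to 1.49 CPM in NFKBIE-wt and 0.982 to 2.36 CPM in NFKBIE-ko samples, overlapped between genotypes with a log2 fold change of 0.68 (SE 0.42, adjusted p = 0.217). Whether the genes differed from each other in their change was not tested.

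Gzmb encodes granzyme B, the protease that cleaves caspases and other death substrates after aspartate (chr14:56496295-56499717, minus strand). It was at 2.64, 2.62, 3.26 and 0.154 CPM in NFKBIE-wt spleens and at 22.2, 18, 52.7 and 23 CPM in NFKBIE-ko spleens. The lowest NFKBIE-ko value was more than the highest NFKBIE-wt value, and among NFKBIE-ko spleens replicate 3 stood above the rest. The log2 fold change of 3.74 was the largest of the 10 in the spleen with all libraries (SE 0.70, adjusted p = 0.0221, edgeR), and it was 3.34 without NFKBIE-wt replicate 4 (SE 0.40, adjusted p = 0.00203). In the PC Gzmb was at 3.06, 3.08, 4.34 and 8.76 CPM in NFKBIE-wt and at 10.4, 12.6, 22 and 11.8 CPM in NFKBIE-ko samples. These groups did not overlap either, and the log2 fold change was 1.55 (SE 0.39, adjusted p = 0.0112).

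Gzma encodes granzyme A, a tryptase of the same granules (chr13:113230355-113237524, minus strand). It was at 2.00, 1.73, 1.20 and 0 CPM in NFKBIE-wt spleens and at 3.89, 3.68, 16.2 and 4.2 CPM in NFKBIE-ko spleens, where replicate 3 again stood above the other three. The groups did not overlap, but the fold change was not called with all libraries (2.49, SE 0.95, adjusted p = 0.164, edgeR) or without NFKBIE-wt replicate 4 (2.08, SE 0.59, adjusted p = 0.0558). In the PC it reached 2.09, 4.19, 3.96 and 7.70 CPM in NFKBIE-wt and 11.1, 8.28, 18.5 and 14.1 CPM in NFKBIE-ko samples, and the difference of 1.53 was called (SE 0.38, adjusted p = 0.0113).

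The ratio of the granzymes was looked at after the values were seen and was not tested. NFKBIE-ko spleens held 0.175, 0.205, 0.307 and 0.183 Gzma counts per Gzmb count, below all PC samples, whereas NFKBIE-wt spleens 1 to 3 held 0.758, 0.662 and 0.369. NFKBIE-wt spleen replicate 4 had 0 Gzma counts and 4 Gzmb counts. In the PC the ratio was 0.684 to 1.36 in NFKBIE-wt and 0.656 to 1.2 in NFKBIE-ko samples, so that the genotypes overlapped. On the scale of CPM per kilobase of transcript, Gzmb was above Gzma in NFKBIE-ko spleens (20.2 ± 11.1 against 7.83 ± 6.87, mean ± SD, n = 4) and below it in NFKBIE-ko PC samples (9.87 ± 3.66 against 14.6 ± 4.91, n = 4), with wide spreads in each.

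**Figure D2:**
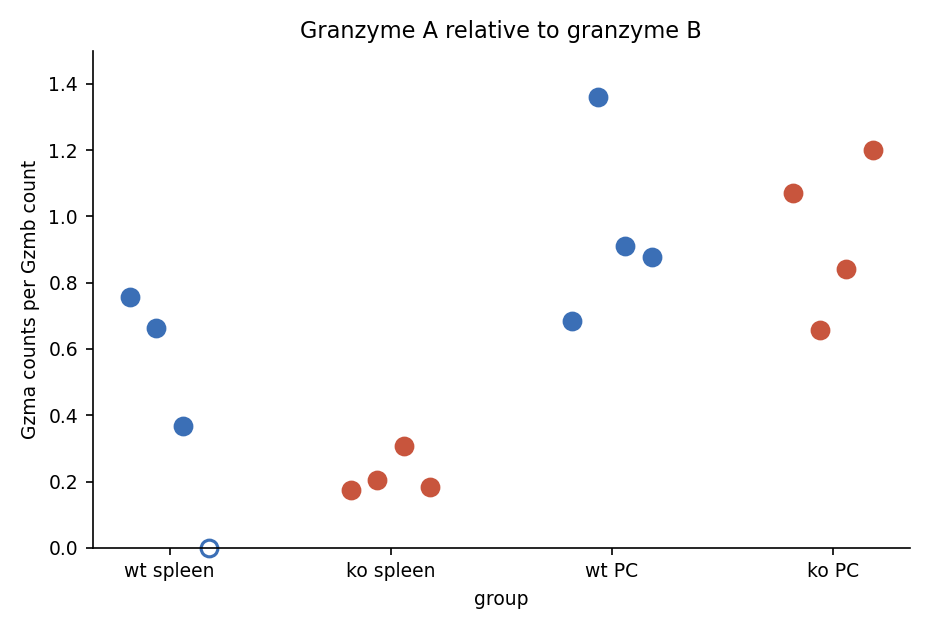
Gzma counts per Gzmb count in each spleen and PC library, with NFKBIE-wt in blue, NFKBIE-ko in red and NFKBIE-wt spleen replicate 4, which had 0 Gzma and 4 Gzmb counts, as an open circle. The 4 NFKBIE-ko spleens lie between 0.175 and 0.307, and every PC sample lies at 0.656 or above.

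Prf1 encodes perforin, which forms the pores through which granzymes pass (chr10:61133546-61140461, plus strand). NFKBIE-wt spleens held 1.60, 1.01, 1.4 and 0.846 CPM and NFKBIE-ko spleens 6.70, 4.78, 12.7 and 6.24 CPM. The groups did not overlap, and the log2 fold change was 2.65 (SE 0.38, adjusted p = 0.00739, edgeR). Of the 10 genes it alone was called in the spleen whichever single library was left out. NFKBIE-wt replicate 4 had 22 Prf1 counts, close to the 25 to 40 counts of the other NFKBIE-wt spleens, and without it the value was 2.50 (SE 0.39, adjusted p = 0.00526). PC samples had 1.17, 1.86, 3.06 and 4.00 CPM in NFKBIE-wt and 6.50, 5.68, 7.26 and 6.37 CPM in NFKBIE-ko samples, a difference of 1.35 (SE 0.32, adjusted p = 0.00671).

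Nkg7 encodes a membrane protein of the cytotoxic granule that takes part in its release (chr7:43086497-43087678, plus strand). It was at 2.04, 1.49, 1.78 and 0.192 CPM in NFKBIE-wt spleens and at 6.55, 7.44, 14.2 and 9.16 CPM in NFKBIE-ko spleens, without overlap. The log2 fold change was 2.76 (SE 0.59, adjusted p = 0.0326, edgeR), and 2.39 without NFKBIE-wt replicate 4 (SE 0.32, adjusted p = 0.00283). In the PC it was at 2.01, 2.13, 2.25 and 5.27 CPM in NFKBIE-wt and 4.99, 7.33, 9.29 and 6.49 CPM in NFKBIE-ko samples. There NFKBIE-wt replicate 4 overlapped the NFKBIE-ko range, and the difference of 1.26 was called (SE 0.33, adjusted p = 0.0122).

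The promoters of these granule genes are shown because the 4 genes were called higher in the PC, and all but Gzma also in the spleen. The 250 bases before the start of the canonical transcript were read from GRCm39, 5′ to 3′ on the strand of the gene, and capitals mark the core letters TGTGGT bound by RUNX factors, which read ACCACA on the other strand. The windows lie at chr14:56499718-56499967, chr13:113237525-113237774, chr10:61133296-61133545 and chr7:43086247-43086496.
Gzmb: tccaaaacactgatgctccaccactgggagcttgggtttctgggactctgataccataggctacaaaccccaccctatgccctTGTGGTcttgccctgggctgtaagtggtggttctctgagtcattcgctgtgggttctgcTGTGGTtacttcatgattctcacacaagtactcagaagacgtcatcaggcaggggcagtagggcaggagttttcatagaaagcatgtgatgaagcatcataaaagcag
Gzma: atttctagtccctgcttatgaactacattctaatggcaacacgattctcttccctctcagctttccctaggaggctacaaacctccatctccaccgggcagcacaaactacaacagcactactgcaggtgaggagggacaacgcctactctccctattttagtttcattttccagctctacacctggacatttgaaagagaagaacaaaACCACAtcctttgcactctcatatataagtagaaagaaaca
Prf1: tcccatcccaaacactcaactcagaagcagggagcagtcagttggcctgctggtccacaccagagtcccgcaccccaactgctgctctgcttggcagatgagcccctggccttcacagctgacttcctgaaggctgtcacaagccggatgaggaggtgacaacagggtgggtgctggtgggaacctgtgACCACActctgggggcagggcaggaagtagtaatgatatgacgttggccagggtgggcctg
Nkg7: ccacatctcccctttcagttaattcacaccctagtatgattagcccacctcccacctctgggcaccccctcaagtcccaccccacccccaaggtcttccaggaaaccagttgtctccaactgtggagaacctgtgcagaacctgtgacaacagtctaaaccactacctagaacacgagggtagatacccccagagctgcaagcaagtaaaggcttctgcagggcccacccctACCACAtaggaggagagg
On either strand, TGTGGT was present in the windows of Gzma, Gzmb, Prf1, Nkg7 and Klrd1, 5 of 10 genes, and in 13% of the 21770 promoters of protein-coding genes. Gzmb held it in 2 places. The AP-1 letters TGANTCA were found in Gzmb and Klrd1 (6.17% of all promoters), the T-box core GGTGTGA in Nkg7 (3.23%) and the longer T-box letters AGGTGTGA, which contain that core, in none of the 10 (0.96%). A match is a match of letters, and binding was not measured here.

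Klrd1 encodes CD94, the partner of the NKG2 receptors on NK cells and on part of the CD8 T cells (chr6:129568677-129575738, plus strand). Its counts were low, with 14, 10, 1 and 0 counts in NFKBIE-wt spleens and 10, 19, 39 and 21 counts in NFKBIE-ko spleens. The ranges overlapped and the log2 fold change of 1.77 was not called (SE 0.93, adjusted p = 0.293, edgeR), nor was that of 1.36 without NFKBIE-wt replicate 4 (SE 0.74, adjusted p = 0.274). PC samples held 26, 9, 18 and 42 counts in NFKBIE-wt and 34, 25, 24 and 26 counts in NFKBIE-ko samples, with a difference of 0.14 (SE 0.43, adjusted p = 0.82) that turned to -0.145 without NFKBIE-wt PC replicate 2.

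Eomes encodes eomesodermin, a T-box factor of NK cells and CD8 T cells (chr9:118307280-118315200, plus strand). It was at 0.479, 1.29, 0.853 and 0 CPM in NFKBIE-wt spleens and at 3.43, 4.03, 4.02 and 1.51 CPM in NFKBIE-ko spleens, without overlap. Its difference of 2.30 was not called with all libraries (SE 0.85, adjusted p = 0.154, edgeR) and was called at 1.88 without NFKBIE-wt replicate 4 (SE 0.47, adjusted p = 0.034). In the PC it was at 0.282 to 0.936 CPM in NFKBIE-wt and at 0.905 to 1.52 CPM in NFKBIE-ko samples (1.18, SE 0.41, adjusted p = 0.0393).

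Tbx21, which encodes T-bet (chr11:96988897-97006158, minus strand), had another pattern from the rest. NFKBIE-wt spleens 1 to 3 had 1.08, 1.09 and 0.194 CPM and replicate 4 had 8.42 CPM, a value within the range of the NFKBIE-ko spleens (9.98, 6.62, 9.78 and 7.95 CPM). With all libraries the log2 fold change of 1.67 was not called (SE 0.88, adjusted p = 0.295, edgeR). Without NFKBIE-wt replicate 4 it was 3.44 (SE 0.50, adjusted p = 0.00394), and the groups no longer overlapped. In the PC it was at 11.3, 11.4, 5.97 and 9.78 CPM in NFKBIE-wt and 18.5, 14.7, 17.8 and 17.8 CPM in NFKBIE-ko samples. The adjusted p there was 0.0052, but the log2 fold change of 0.83 (SE 0.19) did not reach the fold threshold.

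Ifng encodes interferon gamma (chr10:118276951-118281797, plus strand). NFKBIE-wt spleens had 0.320, 0.764, 0.504 and 0.0384 CPM and NFKBIE-ko spleens 2.29, 1.84, 4.77 and 1.74 CPM. The groups did not overlap, and the difference of 2.69 missed the threshold with all libraries (SE 0.70, adjusted p = 0.0608, edgeR) and passed it without NFKBIE-wt replicate 4 (2.31, SE 0.50, adjusted p = 0.0211). PC samples held 2, 1, 1 and 7 counts in NFKBIE-wt and 11, 13, 16 and 5 counts in NFKBIE-ko samples, too few for a test.

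**Figure D3:**
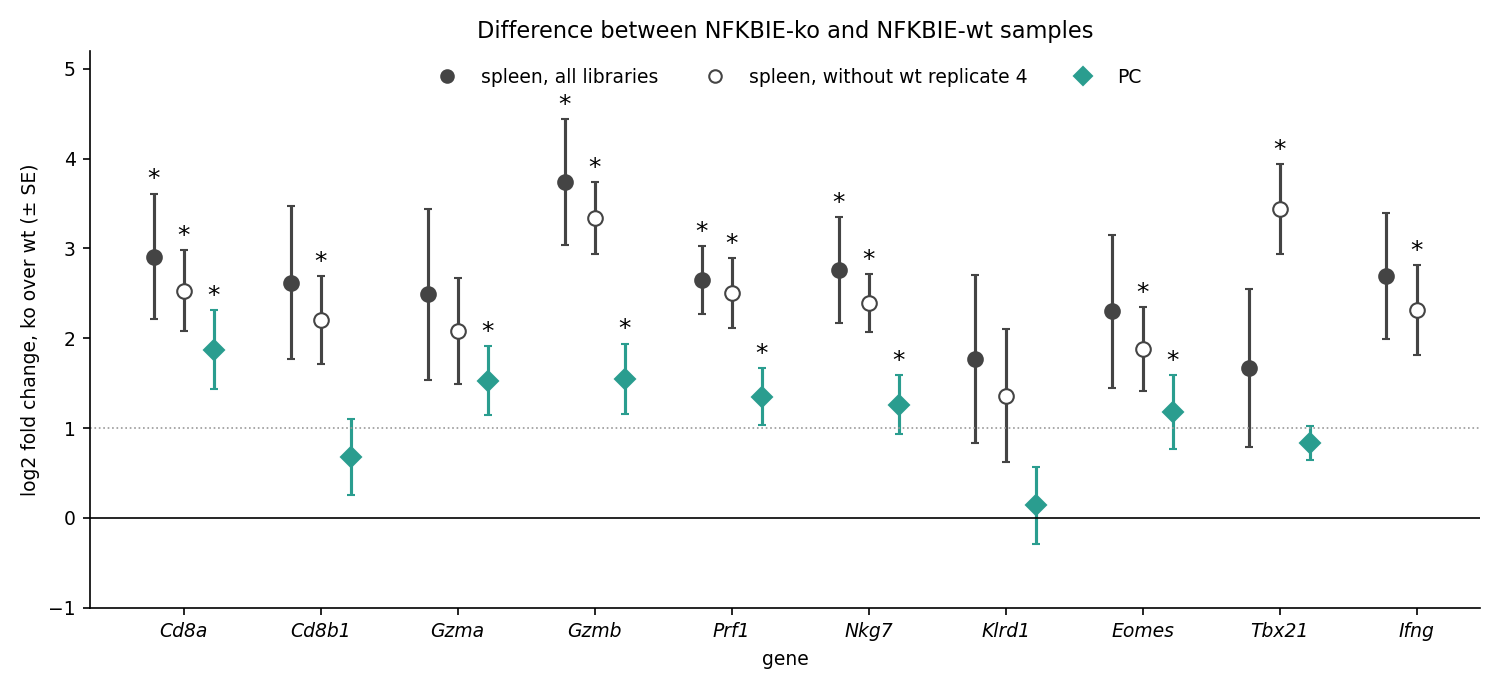
Log2 fold change of NFKBIE-ko over NFKBIE-wt samples with its standard error, for the spleen with all libraries (filled circles), the spleen without NFKBIE-wt replicate 4 (open circles) and the PC (diamonds, Ifng not tested), with a dotted line at the fold threshold of 1 and a star above each value that was called. Stars stand over 4 genes with all spleen libraries, over 8 without that library and over 6 in the PC, and Tbx21 moves from 1.67 to 3.44.

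Whether the effect of genotype differed between spleen and PC was tested as an interaction in a fit of all 22 samples. The 10 differences were above 0 (median 1.21, against -0.009 for all genes), and 0 of 10 were called higher (0.428% of all genes) or lower by edgeR, and 0 by DESeq2. By edgeR 1 of 10, Prf1 (1.29, SE 0.59), had an unadjusted p under 0.05, beside 2790 of all 13801 genes. The difference for Gzmb was 2.18 (SE 1.14, adjusted p = 0.3) and that for Klrd1 1.63 (SE 1.20, adjusted p = 0.487). Without both libraries that went against their labels, 1 of 10 was called higher (0.862% of all genes), Tbx21 at 2.63 (SE 0.50, adjusted p = 0.0051).

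Spleen and PC were also compared within each genotype in the same fit. In NFKBIE-wt samples 0 of 10 genes were called higher in the spleen (4.12% of all genes) or lower (8.45%), and DESeq2 called Prf1 lower. By edgeR 3 of 10 had an unadjusted p under 0.05, beside 6125 of all 13801 genes. Without both libraries that went against their labels Tbx21 was called lower in NFKBIE-wt spleens than in NFKBIE-wt PC samples (-3.62, SE 0.41, adjusted p = 4e-06), as 9.68% of all genes were. In NFKBIE-ko samples Ifng was called higher in the spleen (2.55, SE 0.84, adjusted p = 0.0162), 1 of 10 genes against 5.89% of all genes. That call was lost without NFKBIE-ko PC replicate 4 (2.27) or NFKBIE-ko spleen replicate 3 (2.08). Without both libraries that went against their labels Ifng (2.56, SE 0.71, adjusted p = 0.00507) and Eomes (1.54, SE 0.60, adjusted p = 0.0371) were called, against 6.98% of all genes. Prf1 and Nkg7 differed between the sites of NFKBIE-ko mice by 0.24 (SE 0.41) and 0.41 (SE 0.70) and were not called. Tbx21 was lower in all NFKBIE-ko spleens than in all NFKBIE-ko PC samples, although its difference of -1.0 was not called (SE 0.77, adjusted p = 0.291). Without both libraries that went against their labels the difference was again -1.0 (SE 0.30, adjusted p = 0.00943, edgeR). It then missed only the fold threshold.

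In vitro, most of the 10 genes were at or close to 0. In the 3 NFKBIE-ko cultures Cd8a, Cd8b1, Gzma, Klrd1 and Eomes had 0 counts each, a count that allows up to 3 counts by counting error alone. Gzmb had 2, 0 and 1 counts, Nkg7 2, 0 and 3 and Ifng 1, 0 and 2. NFKBIE-wt culture replicate 2 was alike, with 0 counts for all of these 8 genes. NFKBIE-wt culture replicate 1 held 219 Gzmb, 35 Gzma, 22 Nkg7, 20 Ifng, 17 Eomes and 8 Cd8a counts beside 17 Cd3e counts, and replicate 3, which went against its label, 77 Gzmb, 67 Cd8a, 60 Nkg7 and 60 Eomes counts beside 68 Cd3e counts.

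Prf1 and Tbx21 were present in every culture. Prf1 had 52, 56 and 23 counts in NFKBIE-ko and 89, 23 and 52 counts in NFKBIE-wt cultures, that is 1.68 ± 0.64 and 2.12 ± 1.35 CPM (mean ± SD, n = 3). Tbx21 reached 34.6, 38.9 and 26.5 CPM in NFKBIE-ko cultures, its highest values in the series, against 9.27, 20.9 and 0.447 CPM in NFKBIE-wt cultures 1 to 3. The lowest of these was that of replicate 3. These were the only 2 of 10 genes that passed the filter on low counts. By edgeR 0 were called higher (0.0336% of all genes) or lower, and 0 had an unadjusted p under 0.05, beside 1110 of all 11913 genes. In that fit Tbx21 differed by 1.71 (SE 1.02, adjusted p = 0.56) and Prf1 by -0.33 (SE 0.58, adjusted p = 0.814). Without replicate 3 Tbx21 differed by 1.15 (SE 0.39, adjusted p = 0.451). DESeq2 called 1 gene, Gzmb, lower in NFKBIE-ko cultures, a call that rests on the counts of NFKBIE-wt replicates 1 and 3.

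**Figure D4:**
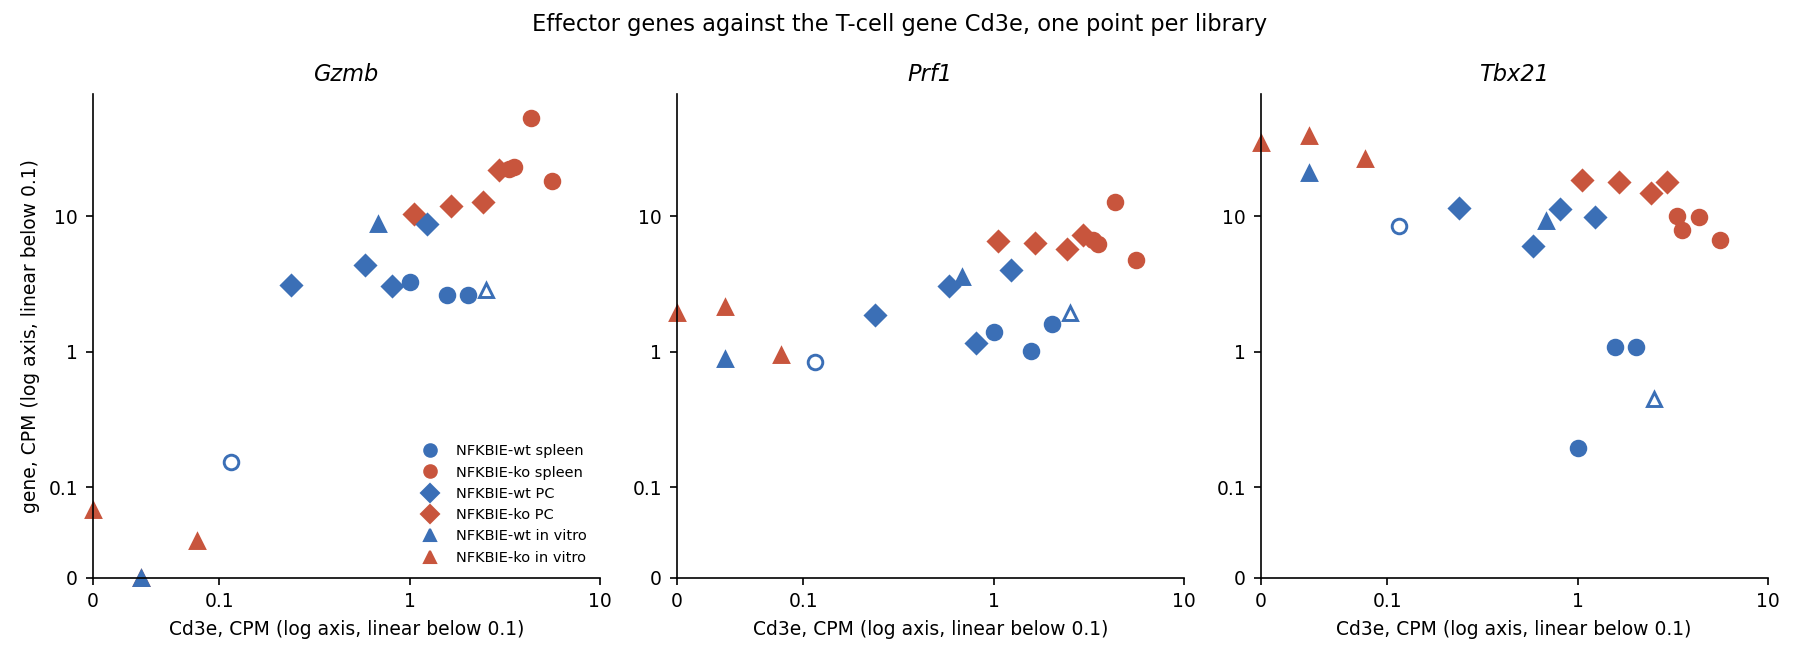
CPM of Gzmb, Prf1 and Tbx21 against CPM of the T-cell gene Cd3e in each of the 22 libraries (log axes, linear below 0.1), with circles for spleen, diamonds for PC, triangles for cultures, NFKBIE-wt in blue, NFKBIE-ko in red, and open symbols for NFKBIE-wt spleen replicate 4 and in vitro replicate 3. Cultures with Cd3e at 0 to 2 counts hold 0 to 2 Gzmb counts but 23 to 56 Prf1 counts and 26.5 to 38.9 CPM of Tbx21 when NFKBIE-ko.

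Of the 8 T-cell markers, some were higher with the members in NFKBIE-ko spleens and others were not. Cd3d, Cd3e and Trbc2, parts of the T-cell receptor complex, stood at 2.08 to 6.00, 3.31 to 5.64 and 5.79 to 13.9 CPM in NFKBIE-ko spleens and at 0.231 to 1.81, 0.115 to 2.04 and 0.0384 to 3.30 CPM in NFKBIE-wt spleens, without overlap. Trac, the constant region of the receptor's alpha chain, named here after its values were seen, had 17.1 to 28.1 CPM in NFKBIE-ko and 7.19 to 38.0 CPM in NFKBIE-wt spleens (-0.19, SE 0.43, adjusted p = 0.84, edgeR), and -0.51 (SE 0.20, adjusted p = 0.136) without replicate 4. In the PC all NFKBIE-ko samples were below all NFKBIE-wt samples in Trac (5.91 to 7.81 against 11.8 to 15.6 CPM, -0.99, SE 0.14, adjusted p = 0.000269), just short of the fold threshold. In the 4 cultures with 0 Trbc2 and at most 2 Cd3e counts, Cd3g had 432 to 897, Trac 66 to 116 and Cd3d 6 to 30 counts. The summed CPM of 8 T-cell markers was 123 to 210 in NFKBIE-ko and 39.9 to 159 in NFKBIE-wt spleens, the lowest being that of replicate 4, in which Trbc1 was at 0, and 239 to 317 and 203 to 269 in the PC, so that the genotypes overlapped in both. Much of each sum was Cd2, with means of 87.1 and 68.7 CPM in the spleen and 247.9 and 211.0 CPM in the PC. NFKBIE-ko cultures, with Trbc1 and Trbc2 at 0, still summed to 55.1 to 70.7 CPM. The sum therefore need not follow the number of T cells. The summed CPM of 5 NK markers, Eomes among them, was 5.56 to 8.72 in NFKBIE-ko and 1.77 to 4.99 in NFKBIE-wt spleens, without overlap. Eomes, itself 1 of the 10 genes, was the only marker of this list whose groups did not overlap there. In means, Klrk1 (1.73 against 0.714 CPM) and Klra8 (0.261 against 0.0998 CPM) were higher in NFKBIE-ko spleens. Klrb1c (1.73 against 2.43 CPM) and Ncr1 (0.1445 against 0.168 CPM) were not. In the PC the sum was 5.2 to 8.23 and 5.75 to 15.7, where NFKBIE-ko samples were not the higher ones. The list was split there. Klrb1c was called lower (-1.20, SE 0.31), and Ncr1 (1.56, SE 0.57) and Eomes (1.18, SE 0.41) were called higher. Klrk1 (0.12, SE 0.43) and Klra8 (0.13, SE 0.59) were not called. In NFKBIE-wt spleen replicate 4, 4 of these 5 were at 0. The summed CPM of 8 myeloid markers was 80.6 to 343 in NFKBIE-ko and 16.8 to 74.6 in NFKBIE-wt spleens, and 3550 to 5330 and 507 to 1610 in the PC. Their part in the results was not tested.

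Set against Cd3 transcripts, Gzmb, Nkg7 and Cd8a did not overlap between the genotypes in the spleen, whereas set against Trbc1 and Trbc2 they did. Gzmb counts per summed count of Cd3d and Cd3e, a denominator chosen after the data were seen, were 2.33 to 5.09 in NFKBIE-ko and 0.474 to 1.2 in NFKBIE-wt spleens, and 2.38 to 3.87 and 1.8 to 3.81 in the PC, where the genotypes overlapped. Per summed count of Cd3d, Cd3e and Cd3g the Gzmb values were 0.805 to 1.86 against 0.0101 to 0.267 in the spleen and 1.11 to 1.69 against 0.586 to 1.5 in the PC. Per Cd3d and Cd3e count the Nkg7 ratio was 0.965 to 1.37 in NFKBIE-ko and 0.444 to 0.741 in NFKBIE-wt spleens, and that of Cd8a 0.701 to 1.01 and 0.191 to 0.496. The Prf1 ratio overlapped with all libraries (0.62 to 1.23 against 0.302 to 2.37) and did not without NFKBIE-wt spleen replicate 4, whose value was the highest (0.302 to 0.583 in the others). Per summed count of Trbc1 and Trbc2 the ratio of Gzmb was 1.59 to 2.98 in NFKBIE-ko and 0.483 to 3.0 in NFKBIE-wt spleens, that of Nkg7 0.658 to 0.88 and 0.277 to 3.67, and that of Cd8a 0.477 to 0.674 and 0.209 to 1.67. Without NFKBIE-wt spleen replicate 4, the NFKBIE-wt values ended at 1.31 for Gzmb and 0.324 for Cd8a, below all NFKBIE-ko spleens, and at 0.721 for Nkg7, which still overlapped. Per summed count of Cd8a and Cd8b1 the genotypes overlapped in the spleen for Gzmb (2.13 to 3.17 against 1.0 to 3.6), Gzma (0.439 to 0.974 against 0.2 to 1.34) and Ifng (0.22 to 0.288 against 0.156 to 0.6). These ratios are descriptions without a test. Low counts make them coarse in NFKBIE-wt spleen replicate 4, which had 1 Trbc2 and 0 Trbc1 counts and set the upper end of these NFKBIE-wt ranges per Trbc count, and the lower end of Gzmb per Cd3 count and of Gzma per Cd8 count.

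The genes whose levels followed the members most closely over the 16 spleen and PC samples were Thy1, Ccl5, Ms4a4b, Stk39 and Klrc1, with Pearson's r of 0.97, 0.96, 0.96, 0.96 and 0.95 to the mean standardised log2 CPM of the 10, among 11783 genes. Without NFKBIE-wt spleen replicate 4 the values were 0.96, 0.93, 0.92, 0.93 and 0.91 over 15 samples. The samples share tissue, genotype and the content of host cells, and the values are descriptions. Among the members themselves, which are part of that mean, Nkg7 (0.99) and Gzmb (0.98) followed it most closely and Tbx21 least (0.42). Without that library Klrd1 had the lowest value (0.63), next to Tbx21 (0.66).

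Other genes of the cytotoxic program were counted in lists. Of all genes tested, 1.33% were called higher and 1.55% lower in NFKBIE-ko spleens, and 9.85% and 3.5% in NFKBIE-ko PC samples. Without NFKBIE-wt spleen replicate 4 the shares in the spleen were 2.86% and 3.26%. Of the other granzymes and granule genes, 1 of 11 tested was called higher in NFKBIE-ko spleens (median log2 fold change 0.57) and 5 of 11 in the PC (median 0.77), with none lower. Gzmk, a granzyme of memory-like T cells, was called in both (3.97, SE 0.73, and 3.82, SE 0.43). In the PC Fasl, the ligand of the death receptor Fas, rose by 1.66 (SE 0.44) and Ctsc, the protease that activates granzymes, by 1.13 (SE 0.08) on the log2 scale. Both were also transcribed in the NFKBIE-ko cultures, where Cd8a, Gzma and Eomes had 0 counts. Fasl averaged 4.87 CPM there against 3.36 CPM in NFKBIE-ko PC samples, and Ctsc 378 against 614 CPM. Which cells they came from was not tested.

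Of 12 NK and killer receptor genes tested in the spleen, 1 was called higher, Klrg1 (2.55, SE 0.60), and 1 lower, Slamf7 (-1.16, SE 0.14), with a median of 1.12. With NFKBIE-wt spleen replicate 4 left out, 2 were called higher, Klrg1 (2.32, SE 0.61) and Klrc1 (2.46, SE 0.54). Slamf7 was also transcribed in the cultures. Its mean level in NFKBIE-ko samples was 100 CPM in the spleen and 72.1 CPM in vitro, and in NFKBIE-wt samples 223 and 165.5 CPM. Every NFKBIE-ko culture lay below every NFKBIE-wt culture, although the difference was not called (-1.20, SE 0.37, adjusted p = 0.529, edgeR). The cells that Slamf7 transcripts came from were not tested. In the PC 5 of 14 genes of this list were higher and 2 lower (median 0.39), with Cd226 at 2.09 (SE 0.42) and Ncr1 at 1.56 (SE 0.57), both activating receptors. Ncr1 had 12 to 15 counts in NFKBIE-ko and 0 to 8 in NFKBIE-wt samples. The others called higher were Tyrobp (1.29, SE 0.17), Fcgr3 (1.25, SE 0.30) and Cd244a (1.22, SE 0.23). They averaged 16.8, 16.1 and 2.06 CPM in NFKBIE-ko cultures, and which cells they came from was not tested. Klrb1b (-1.33, SE 0.31) and Klrb1c (-1.20, SE 0.31) were lower. The 14 T-cell receptor genes and partners had a median of 1.19 in the spleen, and in the PC 9 were higher and 1 lower (median 1.23). Cd28, a co-stimulatory receptor, was at 2.13 (SE 0.28) there and the kinase gene Zap70 at -2.08 (SE 0.22). Without NFKBIE-wt spleen replicate 4 this list had 4 of 14 higher in the spleen, among them Thy1 (2.26, SE 0.38) and Trbc2 (1.79, SE 0.36), and Zap70 lower (-2.19, SE 0.32), beside 3.26% of all genes called lower in that fit.

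Among cytokines and receptors that drive cytotoxic cells, Il2ra, the alpha chain of the interleukin 2 receptor, was called lower in NFKBIE-ko samples of both sites (-2.41, SE 0.34, in the spleen and -2.36, SE 0.14, in the PC). Il15, whose product sustains NK and memory CD8 T cells, was the 1 of 12 called higher in the spleen (1.13, SE 0.24), and 3 of 12 were higher and 3 lower in the PC, with medians of 0.42 and 0.63. In the spleen 3 of 12 were called higher when NFKBIE-wt replicate 4 was left out, Il18 (2.26, SE 0.58), Il2rb (1.10, SE 0.19) and Il15 (1.07, SE 0.24). In the PC Il18 was at 1.49 (SE 0.29), Il18rap at -1.39 (SE 0.21) and Il12a at -1.11 (SE 0.18). Of 11 transcription factor genes tested in the spleen, Runx3 (1.16, SE 0.22) and Tcf7 (1.12, SE 0.20) were called higher and Prdm1 lower (-2.03, SE 0.38), with a median of 0.42. Tcf7 was not called without NFKBIE-wt spleen replicate 4 (0.95, SE 0.14, under the fold threshold), and there Tox (1.69, SE 0.37) was called higher beside Runx3 (1.04, SE 0.21). In the PC 2 of 11 were higher, Bhlhe40 (1.41, SE 0.14) and Stat4 (1.20, SE 0.26), and 2 lower, Id3 (-1.19, SE 0.34) and Id2 (-1.06, SE 0.12), with a median of 0.05.

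The interferon gamma receptor and response list had 5 of 18 genes higher in NFKBIE-ko spleens and 3 of 18 in the PC, with none lower and medians of 0.65 and 0.45. Cxcl9, a chemokine that attracts T cells, was the largest in both (4.70, SE 0.81, and 6.44, SE 0.66), and Gbp2, a guanylate-binding protein gene, was called in both (1.65, SE 0.22, and 1.72, SE 0.44). Without NFKBIE-wt spleen replicate 4, 8 of 18 were higher in the spleen. Of 10 chemokine and receptor genes of effector cells, 3 were higher in the spleen (median 1.51), Cx3cr1 (4.00, SE 0.71), Ccl4 (2.61, SE 0.54) and Ccr7 (1.17, SE 0.24), and 6 without that library, Ccl5 (2.46, SE 0.46) and Ccl3 (1.86, SE 0.34) among them. In the PC 3 of 10 were higher (median 0.73), with the T-cell homing receptor Cxcr3 at 3.37 (SE 0.27).

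Of 8 inhibitors of granzymes and ligands of the killer receptors, 0 were called in the spleen by edgeR in either direction, also without NFKBIE-wt spleen replicate 4. With all libraries the median there was 0.26, and 2 had an unadjusted p under 0.05, beside 2824 of all 12416 genes. In the PC 3 of 8 were higher (median 0.54). These were Serpinb6b (1.24, SE 0.13), Serpinb6a (1.21, SE 0.23) and Serpinb9 (1.11, SE 0.12), whose product blocks granzyme B. In vitro, 0 of the 74 genes of the 8 lists that were tested were called by edgeR in either direction. Of these 74, 16 had an unadjusted p under 0.05, beside 1110 of all 11913 genes.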

How the data were processed

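Total RNA of 22 samples in 6 groups was sequenced by the authors as paired-end TruSeq libraries. They estimated transcript abundance with Salmon 1.8 on GRCm39 and deposited expected counts (estimated counts per transcript, not normalized), 69.5% of them not whole, for 62492 transcripts that were each above 0 in at least 5 samples. Salmon divides reads shared by similar transcripts, such as those of the granzyme genes. All columns matched a sample.

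Counts were summed per gene through GENCODE of the same build, which matched 62147 transcripts, and rounded. Unmatched transcripts, with 0.619% of the counts, stayed in the fits as features of their own, among all genes tested. They were left out of CPM per kilobase. Comparisons between genotypes used the samples of 1 compartment, and the others a fit of all 22 samples, tested by quasi-likelihood with edgeR 4.0.16 in R 4.3.3 (default filter, TMM factors, robust fit). Calls needed an adjusted p under 0.05 and over 1 of log2 fold change either way. Alternatives were DESeq2 1.42.0, other scaling, filters, samples and features, a replicate block and each library left out. Ratios used a pseudocount of 0.5 counts. Likeness used log2 CPM with a prior count of 0.5 for genes with a mean of at least 1 CPM.

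The named genes were all 10 members, Nfkbie, at most 4 genes per list and comparison by size of fold among those called, and the 5 genes most like the members. For the NK and killer receptors in the PC, all genes called are named. A result of 1 list gene is not reported here. Members and lists were chosen with earlier results of these data known. Each library held 24036763 to 26581304 counts, so that genes with few counts are imprecise, and 0 counts allow up to 3. All 30 pairs of replicates differed beyond sampling noise. The tests were tested on simulated data. Samples with the same replicate number did not deviate together (correlations of -0.216 to 0.0999), and groups were compared unpaired. Tables and figures were made with Python 3.11.15, pandas 2.3.3, numpy 2.4.6 and matplotlib 3.10.9.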

Additional observations from a re-analysis of the deposited data

Results flagged for a closer look

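In 8 of the 40 sets of 4 spleen or PC samples per gene and group, 1 sample lay far from the rest by Dixon's criterion (a gap over 0.829 of the range). Independent, normally distributed values would give about 1 in 20. The genes share the same libraries, so the sets are not independent and their number cannot be set against that rate. NFKBIE-ko spleen replicate 3 was the highest of its group for Cd8a (10.4 CPM), Gzma (16.2 CPM) and Gzmb (52.7 CPM). NFKBIE-wt PC replicate 4 was the highest of its group for Nkg7 (5.27 CPM), Eomes (0.936 CPM) and Ifng (0.298 CPM). NFKBIE-wt spleen replicate 4, which went against its label, was the highest of its group for Tbx21 (8.42 CPM), and NFKBIE-ko PC replicate 1 was the highest of its group for Klrd1 (1.28 CPM).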

How the results depend on the processing

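In the spleen 4 of 10 genes were called, 7 by DESeq2, 1 per transcript, 1 with a replicate block and 1 to 8 with a library left out. In the PC 6 were called, 3 per transcript, 1 with edgeR on all samples and 5 to 7 with a library left out. In vitro 0 were called, 1 by DESeq2, 2 with edgeR on all samples (Gzmb and Eomes, lower) and 0 to 2 with a library left out (Gzma and Gzmb, lower, without NFKBIE-wt replicate 2). For the difference of the genotype effects between spleen and PC the count was 0, and 1 without both libraries that went against their labels. For spleen against PC in NFKBIE-wt samples it was 0, 1 by DESeq2, 1 with a replicate block, 1 without both libraries and 0 to 1 with a library left out. In NFKBIE-ko samples it was 1, 0 per transcript, 5 with edgeR on the samples of that genotype, 2 without both libraries and 0 to 1 with a library left out. Shares of all genes called are not given for most of these settings. Whether the 10 genes moved more than others cannot be read from the counts. Directions turned for values that were not called, with a library left out: Klrd1 in the PC (-0.145 to 0.605), Prf1 in vitro (-0.704 to 0.234), Ifng in the difference of effects (-0.301 to 1.22), Cd8a (-0.31 to 0.51) and Eomes (-0.151 to 0.931) in NFKBIE-wt spleen against PC, and Prf1 in NFKBIE-ko spleen against PC (-0.16 to 0.409). The cause was not tested. Replicate numbers did not pair the samples, and the replicate block is given for that reason once. Log2 ratios of the genotypes' medians in the spleen moved with the denominator. Per Cd3d, Cd3e and Cd3g count they were 1.98 for Prf1, 1.79 for Nkg7, 1.68 for Klrd1 and 1.59 for Ifng. Cd3g, which was also transcribed in cultures without Trbc2 counts, was the larger part of that denominator. Prf1 was at -0.425 per Cd8 count, 0.505 per Trbc count and 0.931 per Cd3d and Cd3e count, Nkg7 at -0.653 per Cd8 count and 0.445 per Trbc count, Klrd1 at -0.959 and -0.503, and Ifng at -0.654 per Cd8 count. In the PC Tbx21 was at -0.759 per Trbc count. Low counts limit what the depth can show for Klrd1, which had at most 42 counts in a library, and for Ifng, which had at most 20 outside the NFKBIE-ko spleens.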
